A study of Arabidopsis thaliana with 12 samples.

Results

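The response of *Arabidopsis thaliana* seedlings to a long night was compared between wild type Col-0 (WT) and the *pifq* mutant, to find the genes whose response depended on the genotype. For every probe set the night response was the log2 signal in short days (SD) minus that in continuous light (LL), and the interaction was the response of WT minus the response of *pifq*. A positive interaction thus means that SD raised the transcript more, or lowered it less, in WT than in *pifq*. The comparison used all 12 arrays of the series, 3 biological replicates in each of the 4 combinations of genotype and light regime, and 38122 of the 38408 probe sets. Of these, 58 passed the test for the interaction, and they are the genes described here.

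All groups were whole seedlings of 3 days, grown without sucrose under 85 µmol per square metre and second of white light. They shared 2 SD days of 8 h light and 16 h dark, after which the SD groups went through another such day and the LL groups stayed in light, and all were harvested 24 h after the start of that day. *pifq* lacks functional *PIF1*, *PIF3*, *PIF4* and *PIF5* in the Col-0 background. The sources used here do not give its alleles. The p-values measure the spread between the samples labelled as biological replicates, and 3 arrays per group limit the precision. In whole seedlings, fewer cells of a type and less RNA per cell cannot be told apart.

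Phytochrome-interacting factors (PIFs) are basic helix-loop-helix (bHLH) transcription factors. Light-activated phytochromes bind them and lead to their degradation, whereas in darkness they accumulate and bind G-box and related elements in promoters. In the last hours of a long night they are known to promote hypocotyl growth, acting on genes of auxin, cell wall loosening and shade avoidance, and in etiolated seedlings they hold back greening.

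The array medians lay between 5.0 and 5.12 on the log2 scale. Transcripts of the mutated genes separated the genotypes in both light regimes, as *PIF3* (AT1G09530) had mean log2 signals of 7.68 in WT SD and 7.2 in WT LL against 3.62 in *pifq* SD and 3.79 in *pifq* LL. Their own interactions did not pass the test, at -0.41 ± 0.27 (SE, n = 3 arrays per group) for *PIF1* (AT2G20180), 0.65 ± 0.28 for *PIF3* and 0.35 ± 0.36 for *PIF5* (AT3G59060), and *PIF4* had no named probe set here. Markers of the labelled tissue were well above the array medians, *RCA* (AT2G39730), the green tissue marker Rubisco activase, at mean log2 signals of 12.75 to 13.17 in the 4 groups, and the root marker *PYK10* (AT3G09260), a beta-glucosidase, at 12.95 to 13.27. The 4 measured root markers had interactions of -0.12 to 0.09. Those of the 2 measured green tissue markers were -0.21 and -1.15, and neither passed the test.

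Most probe sets that changed in one genotype moved the same way in the other. In WT 2513 probe sets (6.59%) were called SS1.5F, that is, they changed at an adjusted p under 0.05 in limma and by at least 1.5 fold. In *pifq* 1398 (3.67%) were called. The responses share no array, and 951 probe sets were called in both with the same sign, which was 37.8% of those called in WT and 68.0% of those called in *pifq*. Only 10 were called with opposite signs. Of the probe sets called in WT, 93.4% had a point estimate of the same sign in *pifq*, against 67.0% of all tested. Across probe sets, which are not independent replicates, the responses of the genotypes correlated at r = 0.456 (Pearson) and rho = 0.433 (Spearman).

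The interaction was called for 58 probe sets (0.152%), each with a different gene. WT had the more positive response in 52 (0.136%) and the more negative one in 6 (0.0157%). This split moved with the processing, to 132 and 74 with a variance trend in limma and to 122 and 63 when only probe sets with a mean log2 signal of at least 5 in some group were tested. At an unadjusted p under 0.05 in limma the interaction took in 2507 probe sets (6.58%), split almost evenly into 1240 with a higher (3.25%) and 1267 with a lower response in WT (3.32%). The sizes of the called interactions ran from 0.98 to 3.74 on the log2 scale, beside a median of -0.005 over all tested probe sets. A difference of differences carries more error than a single response, with a median SE of 0.29 for the interaction and 0.21 for the WT response over all tested probe sets. Of the 58, 28 had an adjusted p of at least 0.03, and the last one called, at 0.0498, lay next to *ACS5* (AT5G65800), an ethylene synthesis gene, at 0.0510. Leaving out 1 array left between 6 and 26 calls, with the fewest without WT LL replicate 1 or WT LL replicate 2, 9 without WT SD replicate 3 and the most without *pifq* SD replicate 1 or *pifq* SD replicate 2. Of the 58 genes, 25 lost their call without each of the 12 arrays in turn, 27 lost it without some of them and 6 kept it in all 12 fits.

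The 58 genes fell into a few patterns, shown in the plot of the response of every probe set in both genotypes. In 37 the transcript rose in WT, with no change called in *pifq*. In 8 it rose in WT and fell in *pifq*, and in 1 it fell in WT and rose in *pifq*. In 5 it fell in *pifq* alone. In the other 7 it changed in the same direction in both genotypes by different amounts, falling in 5 and rising in 2. The platform annotation names 22 of the 58, and 36 take their locus from the study's own list of genes changed by SD or by PIFq, so that a changed gene was more likely to have a name than an unchanged one.

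**Figure D1:**
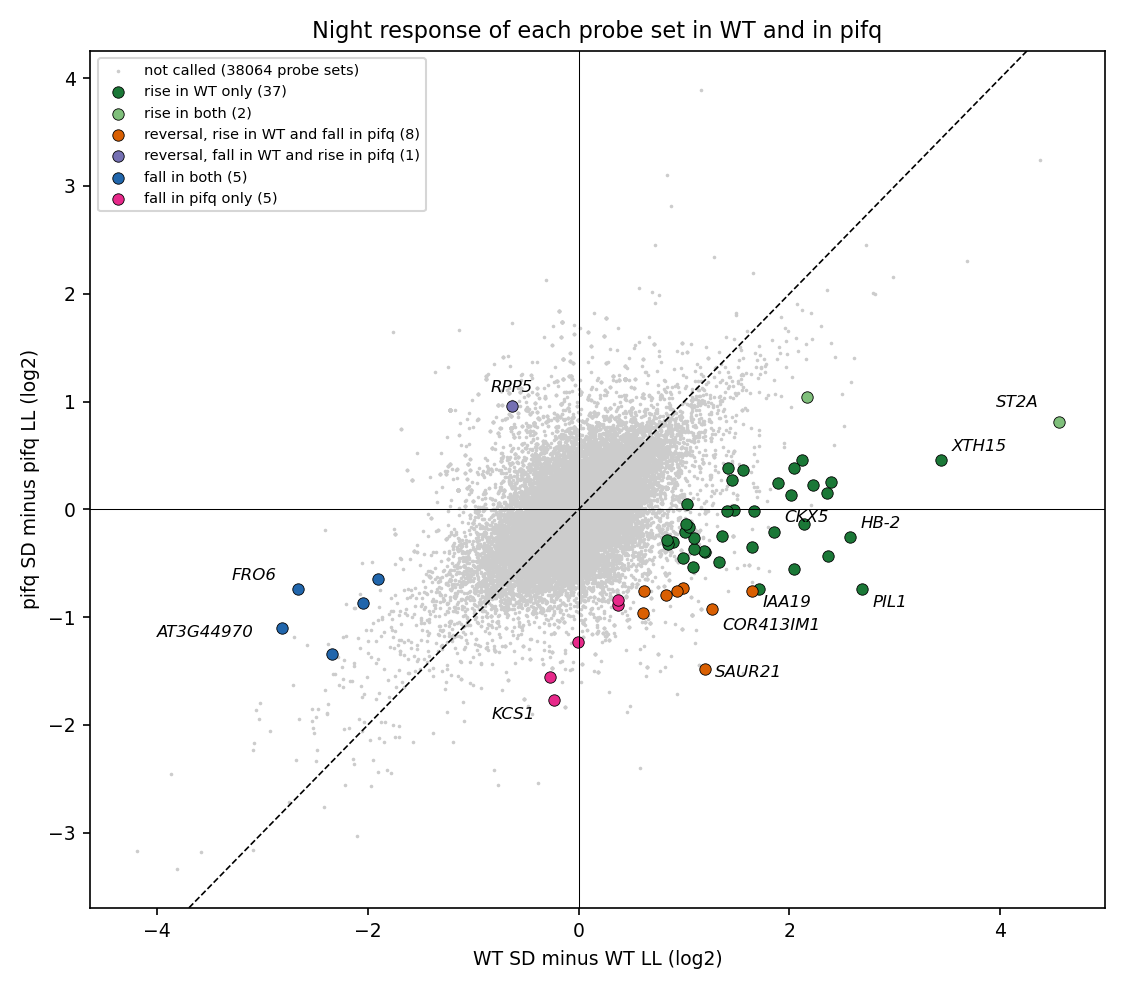
Night response (SD minus LL, log2) of each of the 38122 tested probe sets in WT (x axis) and *pifq* (y axis), with the 58 genes called for the interaction in colour by pattern and the dashed line marking equal responses. Most coloured points lie to the right of the line, where the WT response is the more positive, and the 9 reversals lie in the upper left or lower right quadrant.

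The signal of a called gene usually stood out in WT SD, in *pifq* SD or in both. In 49 of the 52 genes with the higher response in WT, the 3 WT SD arrays were above all 9 others, a pattern found in 2.78% of all tested probe sets. The exceptions were *KCS1*, *BDG1* and *CYS2*. In 24 of the 52, among them these exceptions, the 3 *pifq* SD arrays were below all others (1.43% of all tested). In 5 of the 6 genes with the lower response in WT, WT SD was below all other arrays (3.27% of all tested), the exception being *RPP5*. The interaction selects for such patterns, so the shares only describe the genes.

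Set side by side, the difference between genotypes in the 58 genes had a median size of 1.63 on the log2 scale in SD and 0.15 in LL. Over all tested probe sets these medians were 0.17 and 0.15. The smallest difference in SD was that of *SIS*, at -0.80, and the largest in LL was that of *SAUR21*, at -0.76. These differences use the same arrays as the interaction, so they restate it in other terms. In 20 of the 58 genes the LL arrays of the genotypes did not overlap, beside 13.3% of all tested probe sets. None of the 58 was called for the difference between genotypes in LL, so an order of the genotypes in LL given below only describes the arrays.

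**Figure D2:**
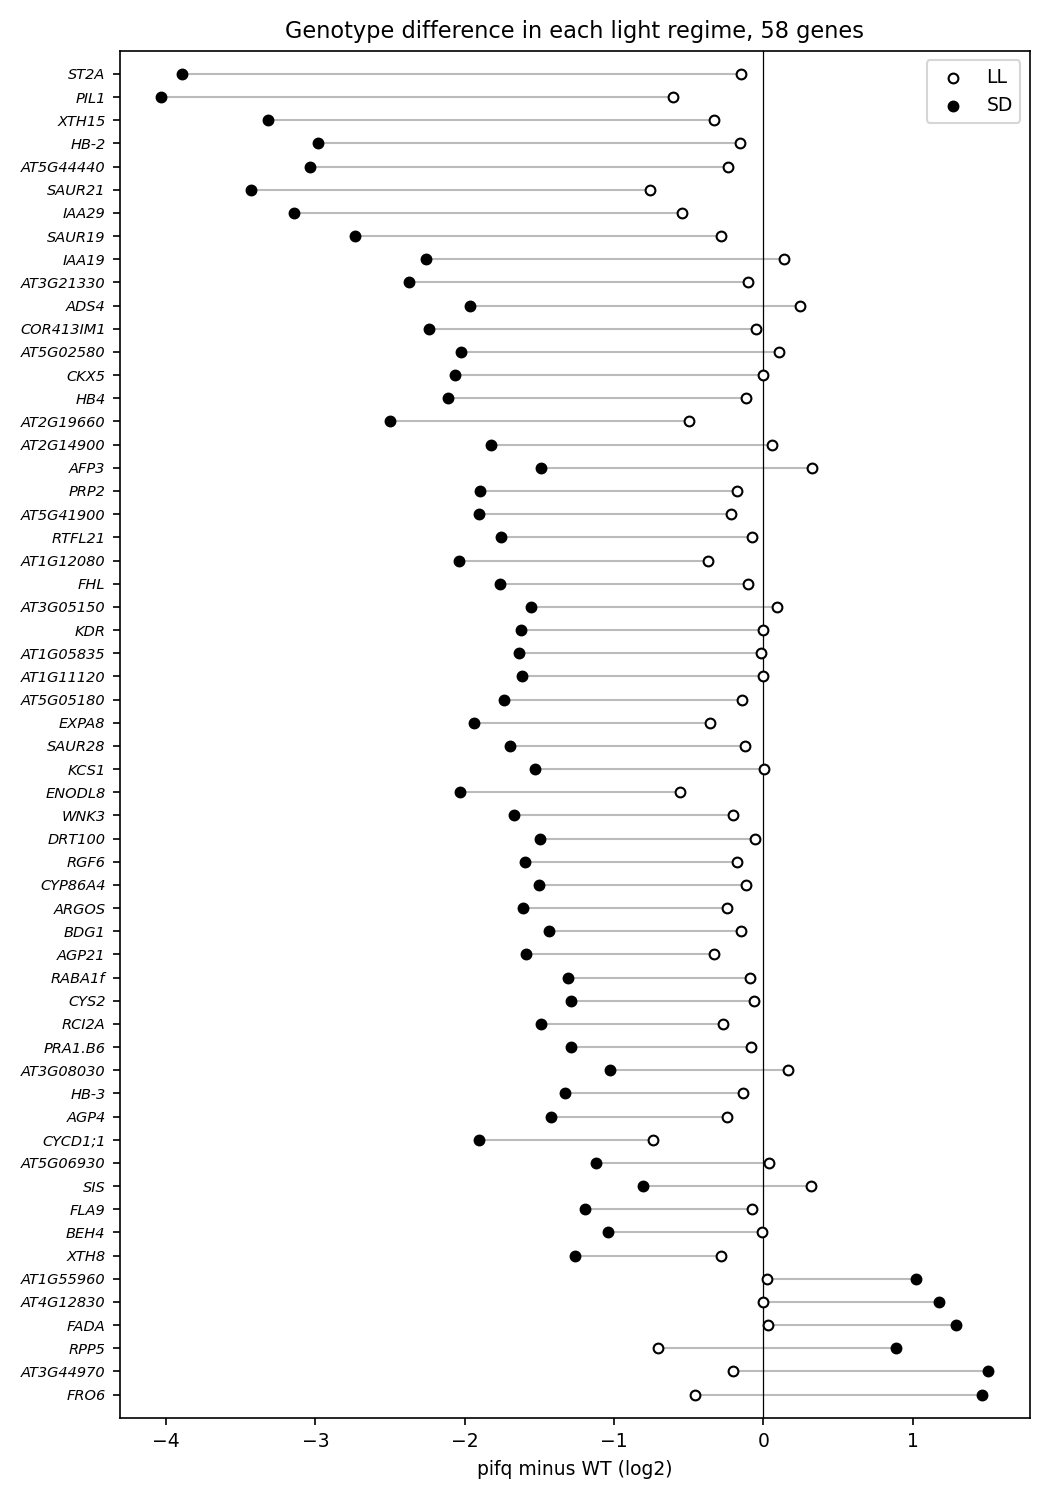
Difference between genotypes (*pifq* minus WT, log2) in LL (open circles) and SD (filled circles) for the 58 genes, in the order of their interaction. The SD differences reach -4.03 for *PIL1*, and the LL differences stay between -0.76 and 0.33.

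In some genes the sign of the night response reversed between the genotypes. A gene counted as a reversal when the interaction was called and each response was called with the opposite sign, which held for 9 genes (0.0236%). For 8 of these the long night raised the transcript in WT and lowered it in *pifq*, and *pifq* SD was the lowest group in each. They include 2 auxin-induced genes, a cell wall protein and an expansin, a helix-loop-helix regulator, a cold-induced protein, a cutin enzyme and an alpha/beta hydrolase.

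*SAUR21* (AT5G18030), of a family of small auxin-induced proteins that promote cell expansion, had the largest reversal. Its log2 signals were 8.33, 8.26 and 8.22 in WT SD, 7.01, 6.78 and 7.42 in WT LL, 5.2, 4.26 and 5.03 in *pifq* SD, and 6.16, 6.56 and 6.22 in *pifq* LL. No groups overlapped, and the order was WT SD, WT LL, *pifq* LL and *pifq* SD. The transcript rose by 1.2 ± 0.24 in WT and fell by 1.48 ± 0.24 in *pifq*, an interaction of 2.67 ± 0.35 (adjusted p = 0.0243 in limma). The nearby *SAUR19* and the nearly identical members of this cluster may share probes, so the signal cannot be assigned to 1 member with certainty.

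*IAA19* (AT3G15540) encodes an Aux/IAA repressor that auxin induces. It gave 5.33, 5.52 and 5.65 in WT SD, 3.83, 3.82 and 3.92 in WT LL, 3.41, 3.06 and 3.25 in *pifq* SD, and 3.6, 4.17 and 4.23 in *pifq* LL. WT SD was far above and *pifq* SD below the LL arrays, which overlapped between the genotypes. The rise of 1.64 ± 0.17 in WT stood against a response of -0.76 ± 0.17 in *pifq*. Outside WT SD all its signals lay below the array medians.

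*PRP2* (AT2G21140) encodes a proline-rich cell wall protein. Its log2 signals were 9.9, 9.58 and 9.48 in WT SD, 8.65, 8.62 and 8.71 in WT LL, 7.7, 7.79 and 7.78 in *pifq* SD, and 8.52, 8.5 and 8.44 in *pifq* LL. All 4 groups were apart, in the same order as for *SAUR21*. With responses of 0.99 ± 0.12 in WT and -0.73 ± 0.12 in *pifq*, its interaction was 1.72 ± 0.17 (adjusted p = 0.00785 in limma).

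*EXPA8* (AT2G40610) encodes an expansin, a protein that loosens the cell wall. It gave 9.99, 10.07 and 9.97 in WT SD, 9.35, 9.35 and 9.51 in WT LL, 8.41, 7.82 and 7.99 in *pifq* SD, and 8.89, 9.07 and 9.16 in *pifq* LL. Here the fall in *pifq* (-0.97) was larger than the rise in WT (0.61 ± 0.15). The *pifq* arrays were already below those of WT in LL, a difference that did not pass its test (adjusted p = 0.768 in limma). *KDR* (AT1G26945), an atypical helix-loop-helix protein that lacks the DNA-binding region, gave 8.77, 8.91 and 8.6 in WT SD, 7.78, 7.99 and 8.02 in WT LL, 7.2, 7.16 and 7.04 in *pifq* SD, and 8.17, 7.89 and 7.73 in *pifq* LL. It showed the most even reversal, as LL arrays overlapped between genotypes and the responses were 0.83 ± 0.14 in WT and -0.80 in *pifq*.

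*COR413IM1* (AT1G29395) encodes a cold-induced membrane protein of the chloroplast. Its values were 7.8, 7.34 and 7.63 in WT SD, 6.27, 6.36 and 6.36 in WT LL, 5.77, 4.8 and 5.48 in *pifq* SD, and 6.17, 6.22 and 6.44 in *pifq* LL. The LL arrays again overlapped, and both SD groups lay outside them, WT by 1.26 ± 0.22 and *pifq* by -0.93. *CYP86A4* (AT1G01600), a fatty acid hydroxylase of cutin synthesis, had 6.5, 6.22 and 6.55 in WT SD, 5.72, 5.95 and 5.72 in WT LL, 4.95, 4.87 and 4.94 in *pifq* SD, and 5.92, 5.4 and 5.72 in *pifq* LL. It had the smallest interaction of the reversals, at 1.38 ± 0.21. The hydrolase AT5G41900 had 8.18, 8.01 and 7.85 in WT SD, 7.04, 6.9 and 7.32 in WT LL, 6.13, 6.44 and 5.75 in *pifq* SD, and 6.86, 6.94 and 6.8 in *pifq* LL. It followed the same course, with overlapping LL arrays and responses of 0.93 ± 0.18 and -0.76.

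The single reversal in the other direction was *RPP5* (AT4G16950), a disease resistance gene of the TIR-NBS-LRR class. Its log2 signals were 5.81, 5.9 and 5.84 in WT SD, 6.32, 6.46 and 6.68 in WT LL, 6.44, 7.11 and 6.67 in *pifq* SD, and 5.68, 5.79 and 5.87 in *pifq* LL. The night thus lowered it in WT by 0.64 ± 0.17 and raised it in *pifq* by 0.96 ± 0.17, and the genotypes were apart in both regimes, with *pifq* lower in LL and higher in SD. *RPP4* (AT4G16860), a close paralog in the same cluster and named here after its values were seen, had responses of -0.86 and 1.25 and an interaction of -2.12 that did not pass the test (adjusted p = 0.0857 in limma). Probes may be shared between these paralogs, so the values of both are uncertain. A further gene with called and opposite responses, AT4G27300, had -0.63 in WT and 0.76 in *pifq*, and its interaction of -1.39 missed the threshold (adjusted p = 0.0709 in limma).

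Of the reversals, *PRP2* kept its interaction call without any 1 of the 12 arrays and *IAA19* lost it without 2 of them. *KDR* lost it without 8, *SAUR21* without 9, *COR413IM1* and *RPP5* without 10, *EXPA8* and AT5G41900 without 11, and *CYP86A4* without each of the 12. The sign of every one of these interactions was kept. Fits without 1 array counted 1 to 7 reversals. In the main fit 11 of the called genes had opposite signs of at least 1.5 fold in each genotype, whether or not the single responses passed their tests. Those beyond the reversals were *PIL1* and *SAUR19*.

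**Figure D3:**
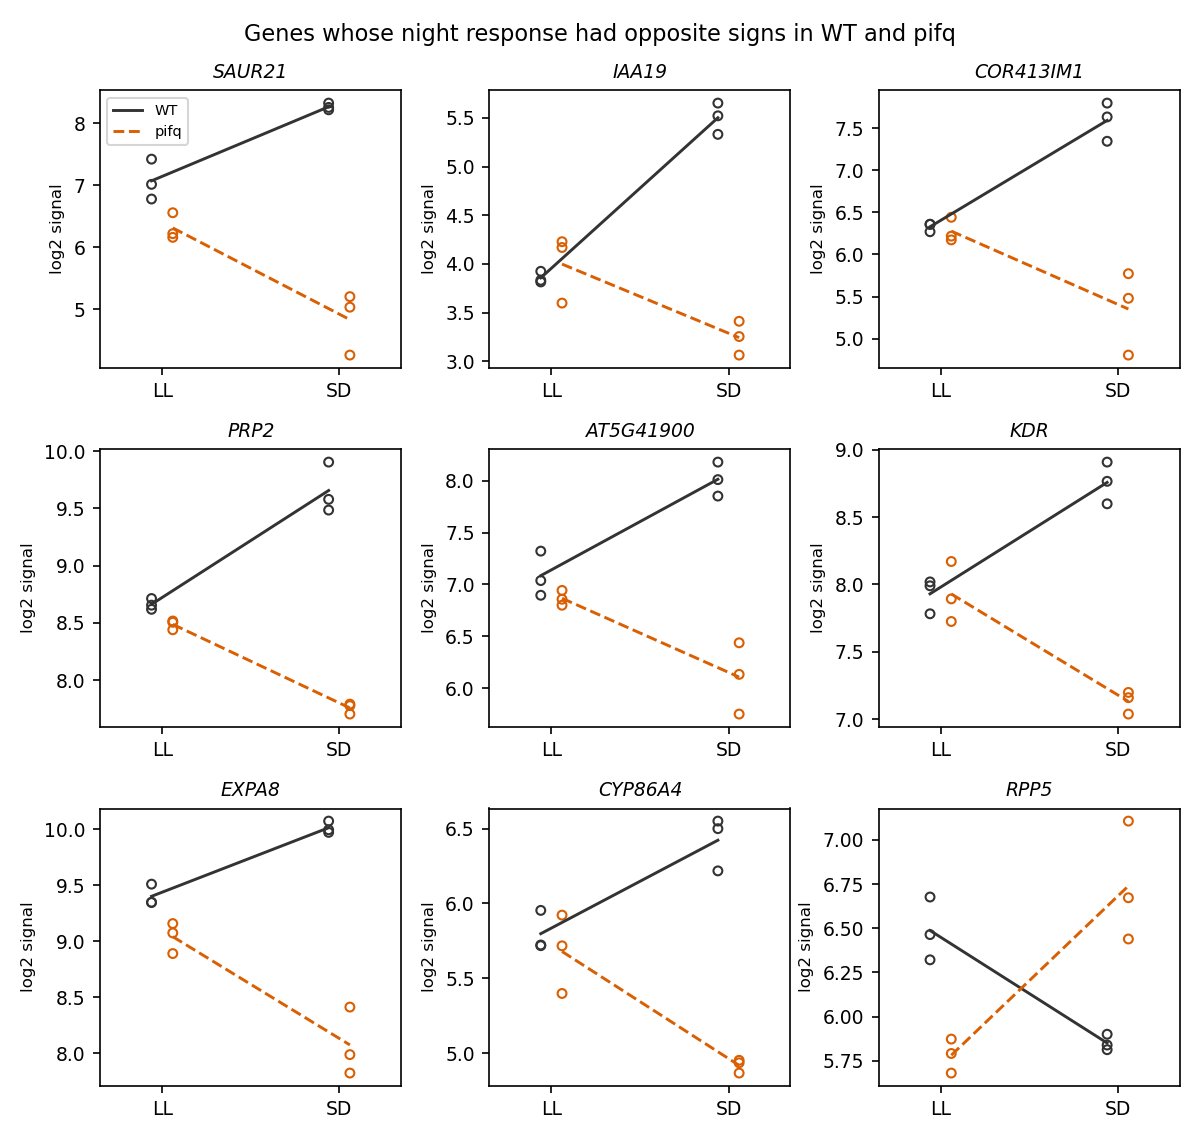
Log2 signal of the 9 reversals in LL and SD, WT in black and *pifq* in orange, with 1 circle per array and lines joining the group means. In 8 panels WT SD is the highest and *pifq* SD the lowest group, and in the panel of *RPP5* WT fell by 0.64 from LL to SD while *pifq* rose by 0.96.

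Among transcriptional regulators, the largest interactions were those of genes known from shade avoidance. *PIL1* (AT2G46970), a bHLH protein of the PIF family, is a common marker of PIF activity. Its arrays read 8.92, 7.68 and 8.73 in WT SD, 5.79, 5.88 and 5.59 in WT LL, 4.64, 3.84 and 4.76 in *pifq* SD, and 5.38, 4.89 and 5.18 in *pifq* LL. It rose by 2.69 ± 0.33 in WT, whereas its change of -0.74 ± 0.33 in *pifq* did not pass the test, and *pifq* SD lay below every other array. *HB-2* (AT4G16780), a homeodomain-leucine zipper protein also called ATHB2, had 8.39, 7.9 and 8.09 in WT SD, 5.56, 5.49 and 5.61 in WT LL, 5.5, 4.33 and 5.59 in *pifq* SD, and 5.48, 5.27 and 5.44 in *pifq* LL. WT SD stood alone there, since *pifq* SD overlapped both LL groups. Its relative *HB4* (AT2G44910) rose by 1.65 ± 0.15 in WT and changed by -0.35 ± 0.15 in *pifq*.

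Of the 9 measured members of the list of shade-induced regulators, those 3 were called with the higher response in WT, beside 0.136% of all tested probe sets. The calls of *PIL1* and *HB-2* were lost without 11 of the 12 arrays and that of *HB4* without 3. The list's median interaction was 1.83, and at an unadjusted p under 0.05 in limma 8 were higher and 1 lower in WT, beside 3.25% and 3.32% of all tested. *BEE1* (AT1G18400), a bHLH protein of brassinosteroid signalling, had 2.37 (adjusted p = 0.0697) and *HFR1* (AT1G02340), an atypical bHLH protein that restrains PIFs, had 1.83 (adjusted p = 0.157). The lower one was *BBX25* (AT2G31380), a B-box protein, at -0.62. Only 1 of the 9 is named by the platform annotation, so the counts cannot be compared with the shares of all tested. Other regulators among the 58 were the bHLH gene AT3G21330 with an interaction of 2.27 ± 0.27, *HB-3* (AT5G15150), a homeodomain-leucine zipper gene, with 1.19 ± 0.18, and the PHD finger gene AT1G05835 with 1.62 ± 0.25.

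Genes of the auxin response were also among the 58. Of 14 measured members of the auxin response list, 4 were called and none was lower in WT, with a median interaction of 1.12, and 12 were higher at an unadjusted p under 0.05 in limma. Over all tested probe sets 0.152% were called and 3.25% were higher at that unadjusted p. Just 4 of the 14 have a platform name. The others owe theirs to the study's list of changed genes, so the counts cannot be set against these shares. *IAA29* (AT4G32280), another Aux/IAA gene, had 7.3, 6.69 and 7.05 in WT SD, 4.94, 4.72 and 5.25 in WT LL, 4.34, 3.45 and 3.81 in *pifq* SD, and 4.69, 4.17 and 4.4 in *pifq* LL. WT SD was above all other arrays, and the LL arrays were apart with *pifq* lower. It rose by 2.04 ± 0.25 in WT beside -0.55 ± 0.25 in *pifq*, and its call was lost without 11 of the 12 arrays. *SAUR19* (AT5G18010) rose by 1.71 ± 0.22 in WT and had -0.74 ± 0.22 in *pifq*, where adjusted p = 0.0897 in limma. Outside WT SD its signals lay below the array medians. *SAUR28* (AT3G03830) rose by 1.19 ± 0.15 in WT and had -0.39 ± 0.15 in *pifq*, with a mean log2 signal below 5 in every group.

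The whole SAUR family was looked at after these values had been seen. Of its 16 measured genes 14 had a positive interaction, with a median of 1.19, and 3 were called (0.152% of all tested). As only 5 of the 16 have a platform name, these counts cannot be set against that share. *SAUR20* (AT5G18020), at 2.27, and *SAUR24* (AT5G18080), at 2.64, were as large as the called ones but had SEs of 0.56 and 0.69. *SAUR14* (AT4G38840), at -0.18, and *SAUR6* (AT2G21210), at -0.65, were on the other side. None of 4 measured genes of auxin synthesis was called, and *YUC8* (AT4G28720), a flavin monooxygenase of that pathway, had the largest interaction of them, at 0.75 (adjusted p = 0.664).

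The largest called interaction was that of a jasmonate gene. *ST2A* (AT5G07010) encodes a sulfotransferase that inactivates hydroxyjasmonate. Its log2 signals were 10.3, 9.82 and 9.86 in WT SD, 5.5, 5.26 and 5.56 in WT LL, 6.0, 6.08 and 6.22 in *pifq* SD, and 5.13, 5.5 and 5.23 in *pifq* LL. In WT the transcript rose by 4.55 ± 0.16, and in *pifq* by 0.81 ± 0.16, which is 17.8% of the WT response. The interaction of 3.74 ± 0.23 had an adjusted p of 0.000196 in limma, the smallest of all together with that of *XTH15*. *ST2B* (AT5G07000), its paralog, had 1.44 (adjusted p = 0.403), while *LOX2* (AT3G45140) and *AOS* (AT5G42650), enzymes of jasmonate synthesis, had -0.48 and -0.12.

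Genes of other hormones were called singly. *CKX5* (AT1G75450), a cytokinin oxidase, gave 7.81, 7.73 and 7.62 in WT SD, 5.76, 5.89 and 5.95 in WT LL, 5.79, 5.55 and 5.64 in *pifq* SD, and 5.77, 5.83 and 6.0 in *pifq* LL. Outside WT SD all 9 arrays lay between 5.55 and 6.0, so its response was seen in WT alone, at 1.85 ± 0.11 against -0.21 ± 0.11. *AFP3* (AT3G29575), whose product binds the abscisic acid regulator ABI5, gave 7.67, 7.51 and 7.44 in WT SD, 6.14, 6.24 and 6.22 in WT LL, 6.03, 6.14 and 5.97 in *pifq* SD, and 6.51, 6.52 and 6.57 in *pifq* LL. In WT it rose by 1.34 ± 0.10, and in *pifq* it changed by -0.48 ± 0.10, with adjusted p = 0.0249 in limma but less than 1.5 fold. The LL arrays were apart with *pifq* higher, so the order of the genotypes turned between regimes. *BEH4* (AT1G78700), a homolog of the brassinosteroid regulator BES1, rose by 1.42 ± 0.11 in WT and had 0.38 ± 0.11 in *pifq*. All 3 measured members of the brassinosteroid list had positive interactions, and none of them has a platform name. Of these, *BIM2* (AT1G69010) had 0.81 (adjusted p = 0.0652 in limma) and was called when probe sets of low signal were left out.

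No gibberellin gene was called of 7 measured, with a median interaction of 0.74. *GA20OX1* (AT4G25420), an oxidase of gibberellin synthesis, had 1.65 (adjusted p = 0.0879) and *GAI* (AT1G14920), a DELLA repressor, 1.03 (adjusted p = 0.0923). Of 5 ethylene genes none was called either. *GAI* and the ethylene gene *ACS5* were called when probe sets of low signal were left out. Small peptides and size regulators were called with the higher response in WT, namely *RGF6* (AT4G16515), a root growth factor peptide, with 1.42 ± 0.22, *RTFL21* (AT1G67265), a ROTUNDIFOLIA-like peptide, with 1.68 ± 0.21, and *ARGOS* (AT3G59900), a promoter of organ size, with 1.36 ± 0.21. In *RGF6* and *RTFL21* the *pifq* response was -0.01 ± 0.16 and -0.02 ± 0.15. The mean log2 signal of *RTFL21* was below 5 in every group.

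Of 10 measured genes of photoreceptors and light signalling, 1 was called, beside 0.152% of all tested probe sets. As only 2 of the 10 have a platform name, this count cannot be set against that share. *FHL* (AT5G02200), which brings phytochrome A into the nucleus, read 6.67, 6.93 and 6.9 in WT SD, 4.77, 4.83 and 4.78 in WT LL, 4.99, 5.19 and 5.02 in *pifq* SD, and 4.92, 4.49 and 4.65 in *pifq* LL. WT SD was above WT LL by 2.04 ± 0.13, and *pifq* SD lay above *pifq* LL by 0.38 ± 0.13 (adjusted p = 0.156 in limma). *PHYA* (AT1G09570), the photoreceptor itself, had an interaction of 1.08 (adjusted p = 0.0857), *PHYB* (AT2G18790) 0.89 (adjusted p = 0.124) and *PHOT1* (AT3G45780), the blue light receptor of phototropism, 0.74 (adjusted p = 0.146). These 3 were called when probe sets of low signal were left out. Those of *HYH* (AT3G17609), a bZIP factor that promotes light responses, and of *SPA1* (AT2G46340), part of the COP1 ligase, were -0.98 and -0.51.

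**Figure D4:**
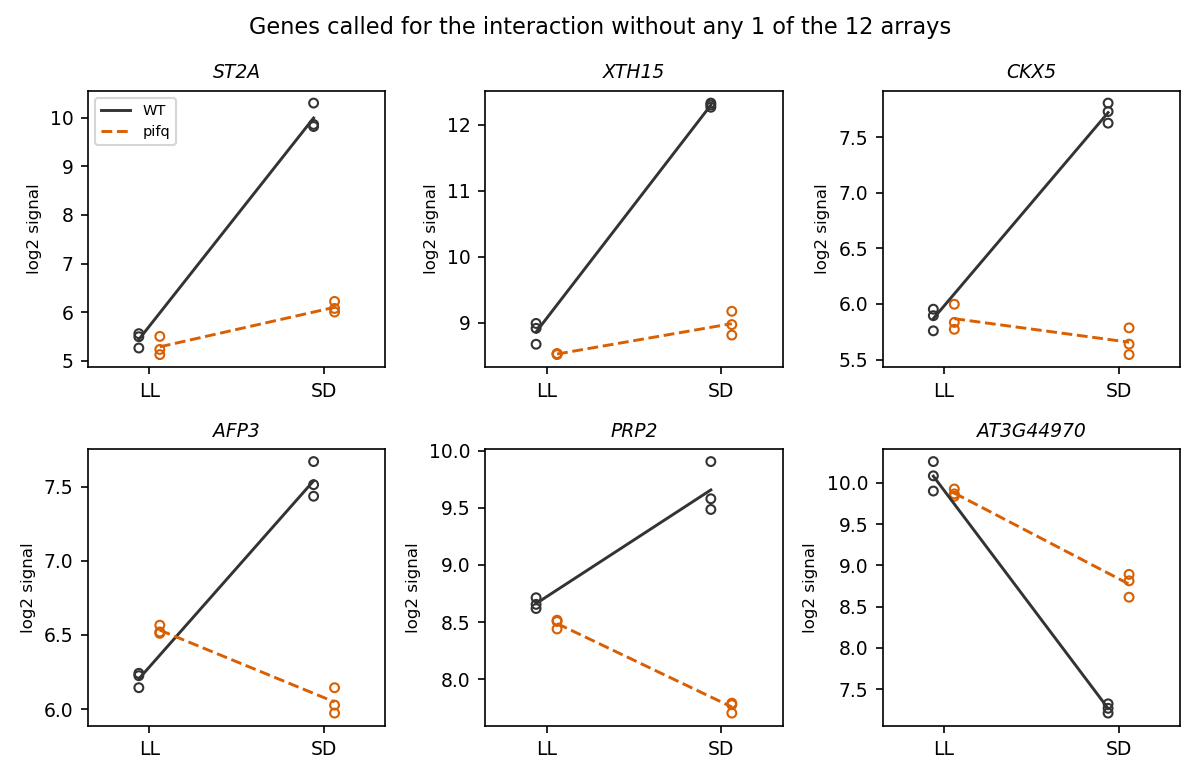
Log2 signal in LL and SD of the 6 genes whose interaction was called without any 1 of the 12 arrays, WT in black and *pifq* in orange, with 1 circle per array and lines joining the group means. In 5 panels WT SD is the highest group, and in AT3G44970 it is the lowest.

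In the cell wall, *XTH15* (AT4G14130), a xyloglucan endotransglucosylase that remodels wall polymers, had an adjusted p of 0.000196 in limma. Its arrays read 12.3, 12.33 and 12.27 in WT SD, 8.91, 8.67 and 8.99 in WT LL, 8.81, 9.17 and 8.97 in *pifq* SD, and 8.53, 8.51 and 8.53 in *pifq* LL. The WT SD arrays were more than 3 log2 units above every other array. The rise was 3.44 ± 0.12 in WT, and the change of 0.46 ± 0.12 in *pifq* did not pass the test (adjusted p = 0.0643 in limma). *XTH8* (AT1G11545), an enzyme of the same family, had 0.98 ± 0.14, the smallest called interaction.

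Of 10 measured cell wall loosening genes 3 were called, *XTH15*, *PRP2* and *EXPA8*, beside 0.152% of all tested probe sets, with a median interaction of 0.78 over the list. A platform name exists for 6 of the 10. The others owe theirs to the study's list of changed genes, so this count leans towards changed genes. *EXPA1* (AT1G69530) was the only member below 0, at -0.47, and it fell in both genotypes, with responses of -1.5 and -1.02. Arabinogalactan proteins and their fasciclin-like relatives, surface glycoproteins of the wall, were grouped after their values had been seen. Of 18 measured, 15 had a positive interaction, with a median of 0.88, and 3 were called (0.152% of all tested). None of the 18 is named by the platform annotation. They have names only because the study called them changed in this series. The counts thus cannot be compared with the share of all tested. *AGP4* (AT5G10430) had 1.18 ± 0.16, *FLA9* (AT1G03870) 1.12 ± 0.16 and *AGP21* (AT1G55330) 1.26 ± 0.19. *AGP7* (AT5G65390) was larger, at 2.09, with adjusted p = 0.0921. *ENODL8* (AT1G64640), an early nodulin-like protein of the plasma membrane, rose by 1.47 ± 0.14 in WT with a *pifq* response of -0.00 ± 0.14, and *pifq* was already lower in LL.

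Genes of the cell surface and of membrane lipids showed several patterns. *ADS4* (AT1G06350), a member of a family of acyl-lipid desaturases, rose by 2.35 ± 0.25 in WT alone, from signals of 2.24 to 2.6 in WT LL, and its mean signals in all 4 groups, 2.36 to 4.71, lay below the array medians. *KCS1* (AT1G01120), an elongase of very long chain fatty acids for waxes, changed in *pifq* instead, with 6.83, 6.48 and 6.84 in WT SD, 6.85, 6.95 and 7.06 in WT LL, 5.34, 5.0 and 5.23 in *pifq* SD, and 7.12, 6.85 and 6.9 in *pifq* LL. It did not change detectably in WT (-0.24 ± 0.14) and fell by 1.77 ± 0.14 in *pifq*, where SD was below all other arrays. *BDG1* (AT1G64670), an epidermal hydrolase needed for the cuticle, gave 8.45, 8.47 and 8.31 in WT SD, 8.77, 8.59 and 8.69 in WT LL, 7.17, 6.67 and 7.08 in *pifq* SD, and 8.39, 8.56 and 8.66 in *pifq* LL. It repeated that pattern, with responses of -0.27 ± 0.14 in WT and -1.56 ± 0.14 in *pifq*. *BDG1* and *ENODL8* are 3 genes apart on the chromosome in the TAIR10.1 annotation.

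Together with *CYP86A4*, these were the 3 called of 10 measured genes of cuticle and surface lipids, a list drawn up after the values had been seen. Its median response was -0.72 in WT and -1.22 in *pifq*, and the median over all tested was -0.01 in each. In WT 4 members fell and 1 rose, beside 3.43% and 3.16% of all tested, and in *pifq* 8 fell, beside 1.88% of all tested. The difference between these counts was not tested. A platform name exists for only 1 of the 10 genes. The rest have a name because the study had called them changed. This list thus leans towards changed genes, and its counts and medians cannot be set against those of all tested probe sets. *GPAT6* (AT2G38110) and *LACS2* (AT1G49430), enzymes of cutin synthesis, had interactions of -0.62 and -0.20. The other genes that fell in *pifq* alone were *AGP21*, *CYS2* (AT2G31980), a cysteine protease inhibitor, and *RCI2A* (AT3G05880), a small cold-induced membrane protein. *CYS2* gave 6.27, 6.65 and 6.29 in WT SD, 6.3, 6.4 and 6.54 in WT LL, 5.27, 5.01 and 5.07 in *pifq* SD, and 6.3, 6.39 and 6.36 in *pifq* LL. Its 9 arrays outside *pifq* SD spanned 6.27 to 6.65, and it fell by 1.23 ± 0.13 in *pifq* against -0.01 ± 0.13 in WT. In *AGP21* and *RCI2A* the WT response was positive but below 1.5 fold, at 0.37 ± 0.13 and 0.38 ± 0.12, and the responses in *pifq* were -0.89 ± 0.13 and -0.84 ± 0.12.

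Of 6 measured abscisic acid and cold response genes none was called, and *COR413IM1* and *RCI2A* are not on that list. *COR15A* (AT2G42540), a chloroplast protein of cold acclimation, had -0.50 and *KIN1* (AT5G15960) -0.10, with a median of -0.06.

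Growth and trafficking genes added smaller interactions. *CYCD1;1* (AT1G70210), a D-type cyclin, had 8.07, 8.11 and 8.02 in WT SD, 7.28, 7.2 and 7.18 in WT LL, 6.23, 6.02 and 6.24 in *pifq* SD, and 6.43, 6.43 and 6.59 in *pifq* LL. It rose by 0.85 ± 0.10 in WT, and *pifq* was lower in both regimes, with a difference from WT of -0.74 in LL and -1.91 in SD. *RABA1f* (AT5G60860), a Rab GTPase, had an interaction of 1.22 ± 0.15 and *PRA1.B6* (AT5G07110), a prenylated Rab acceptor, one of 1.2 ± 0.14. The kinase gene *WNK3* (AT3G48260) had 1.47 ± 0.22, and *DRT100* (AT3G12610), a leucine-rich repeat protein, 1.44 ± 0.21.

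The remaining genes that rose in WT alone are given to account for all 58, whatever the rule for naming genes. The largest was AT5G44440, of the berberine bridge enzyme family, which rose by 2.37 ± 0.31 in WT and had -0.43 ± 0.31 in *pifq*. Its call was lost without each of the 12 arrays in turn and in 6 of 12 other settings. AT5G02580, of unknown function, rose by 2.39 ± 0.19, AT2G19660, of the cysteine/histidine-rich C1 domain family, by 2.22 ± 0.16, and AT2G14900, of a gibberellin-regulated family, by 2.02 ± 0.20. In *pifq* these 3 had changes between 0.14 and 0.26. AT1G12080, related to a vacuolar calcium-binding protein, and AT3G05150, of the major facilitator superfamily, had interactions of 1.67 ± 0.25 and 1.65 ± 0.19. AT1G11120 and AT5G05180 had 1.61 ± 0.24 and 1.59 ± 0.23, AT3G08030, of the DUF642 family, 1.2 ± 0.18, and AT5G06930, which lies 8 genes from *ST2A*, 1.16 ± 0.18.

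A rise in both genotypes with a different size was found for *ST2A* and for *SIS* (AT5G02020), a salt-induced serine-rich protein. *SIS* had 10.08, 10.2 and 10.17 in WT SD, 7.88, 7.96 and 8.1 in WT LL, 9.23, 9.36 and 9.46 in *pifq* SD, and 8.42, 8.29 and 8.19 in *pifq* LL. All 4 groups were apart, with *pifq* higher in LL and lower in SD. The rise in *pifq*, 1.05 ± 0.11, was 48.2% of that in WT, 2.17 ± 0.11.

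Where the transcript fell more in WT than in *pifq*, it fell in both genotypes in 5 of 6 genes. *FRO6* (AT5G49730), a ferric chelate reductase of green tissue, had the most negative called interaction. Its log2 signals were 5.46, 5.26 and 4.76 in WT SD, 7.9, 7.91 and 7.66 in WT LL, 6.69, 6.72 and 6.48 in *pifq* SD, and 7.26, 7.41 and 7.42 in *pifq* LL. The 4 groups were apart, with *pifq* below WT in LL and above it in SD. It fell by 2.66 ± 0.17 in WT and fell by 0.74 ± 0.17 in *pifq*, an interaction of -1.92 ± 0.25 (adjusted p = 0.0228 in limma). AT3G44970, a cytochrome P450, had 7.21, 7.27 and 7.32 in WT SD, 10.09, 10.26 and 9.9 in WT LL, 8.89, 8.61 and 8.81 in *pifq* SD, and 9.93, 9.87 and 9.84 in *pifq* LL. Its LL arrays overlapped between genotypes, and it fell by 2.82 ± 0.12 in WT and fell by 1.1 ± 0.12 in *pifq*, which is 39.2% of the fall in WT.

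*FADA* (AT4G27030), also known as *FAD4*, encodes a desaturase of plastid phosphatidylglycerol. It gave 6.76, 6.84 and 7.0 in WT SD, 8.75, 8.83 and 8.72 in WT LL, 8.21, 8.03 and 8.22 in *pifq* SD, and 8.86, 8.65 and 8.9 in *pifq* LL. The LL groups overlapped and WT SD was below all other arrays, and it fell by 1.9 ± 0.12 in WT and fell by 0.65 ± 0.12 in *pifq*. AT4G12830, an alpha/beta hydrolase, fell by 2.05 ± 0.12 in WT and fell by 0.87 ± 0.12 in *pifq*. AT1G55960, a protein of the polyketide cyclase and lipid transport family, fell by 2.34 ± 0.11 in WT and fell by 1.34 ± 0.11 in *pifq*. In these 5 genes *pifq* kept 27.7 to 57.3% of the WT fall. The fall in *pifq* was smaller in each, and it passed its own test.

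Most pathways with a strong night response had no called interaction. All 7 measured genes of darkness and sugar starvation rose in both genotypes, beside 3.16% of all tested probe sets in WT and 1.79% in *pifq*, with a median interaction of 0.36. Their 7 interactions were all positive, from 0.30 to 1.14. At an unadjusted p under 0.05 in limma 3 were higher in WT, beside 3.25% of all tested. *DIN2* (AT3G60140), a beta-glucosidase, rose by 1.76 in WT and 1.4 in *pifq*. Of 10 measured flavonoid genes 8 fell in each genotype (3.43% of all tested in WT and 1.88% in *pifq*), and *F3H* (AT3G51240), flavanone hydroxylase, had an interaction of -0.16 (95% interval -0.60 to 0.28). The platform annotation names 2 of the 7 starvation and 3 of the 10 flavonoid genes. The others were named because the study called them changed, so these counts cannot be compared with the shares of all tested. 

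Lists of photosynthesis, plastid and clock genes had median interactions below 0 and no called member. With only probe sets of a mean log2 signal of at least 5 tested, 2 carotenoid genes, 2 genes of starch turnover and 1 of chlorophyll synthesis were called with the lower and 1 clock gene with the higher response in WT. The median interaction was -0.56 over 7 carotenoid genes, -0.46 over 10 genes of chlorophyll synthesis, -0.44 over 8 clock genes, -0.33 over 14 genes of starch turnover and -0.14 over 4 light harvesting genes. At an unadjusted p under 0.05 in limma the lower ones numbered 5, 5, 4, 6 and 1, and the higher ones 0, 1, 1, 0 and 0, beside 3.32% lower and 3.25% higher over all tested probe sets. The platform annotation names none of the carotenoid, 2 of the chlorophyll, 2 of the clock, 4 of the starch and 3 of the light harvesting genes. The other names come from the study's list of changed genes, so these counts and medians lean towards changed genes. The higher chlorophyll gene was *PORA* (AT5G54190), the protochlorophyllide oxidoreductase of dark-grown tissue, which rose by 2.42 in WT and had 0.60 in *pifq*, an interaction of 1.82 ± 0.41 (adjusted p = 0.175). The green marker *RBCS1B* (AT5G38430), a Rubisco small subunit, had mean log2 signals of 10.08 in WT SD, 11.22 in WT LL, 11.19 in *pifq* SD and 11.18 in *pifq* LL, an interaction of -1.15 (adjusted p = 0.171). The other PIF genes outside the quartet, *PIF7* (AT5G61270) and *UNE10* (AT4G00050), fell in both genotypes, with interactions of -1.33 (adjusted p = 0.0984) and -0.96 (adjusted p = 0.0856). Both were called when probe sets of low signal were left out.

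**Figure D5:**
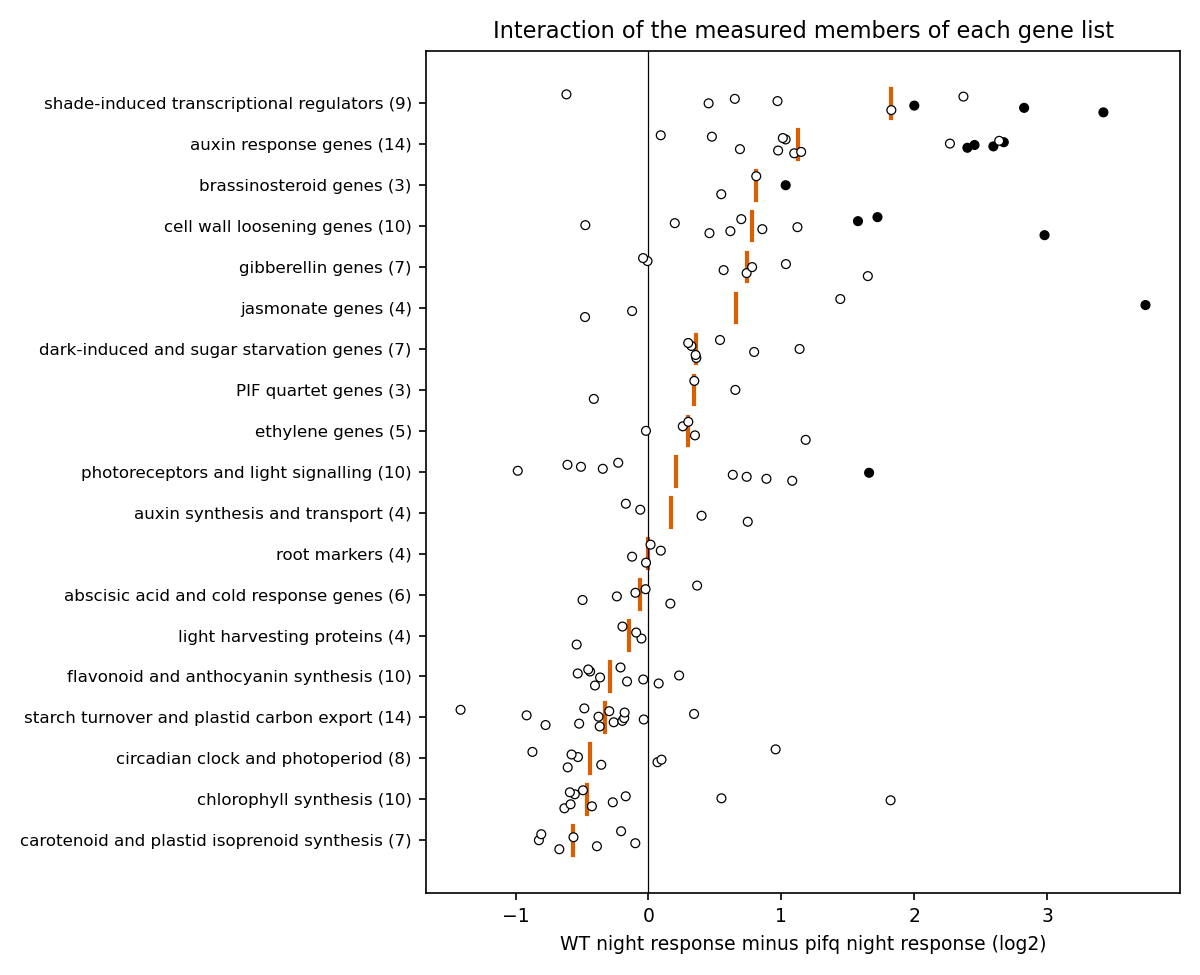
Interaction (WT night response minus *pifq* night response, log2) of each measured member of 19 gene lists, with called genes filled, an orange bar at the median and the number measured in brackets. Shade and auxin lists have medians of 1.83 and 1.12, and carotenoid, chlorophyll, clock and starch lists have medians from -0.56 to -0.33. Many members have a name only from the study's list of changed genes.

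For some genes the interval was narrow enough to bound the difference. Of the probe sets called in both genotypes, 289 had a 95% interval of the interaction inside 1.5 fold in either direction. The largest WT responses among the named ones were those of AT3G06390, a membrane protein of unknown function, *LAC5* (AT2G40370), a laccase, and *CYP86A1* (AT5G58860), a fatty acid hydroxylase of root suberin. AT3G06390 had log2 signals of 8.27, 8.47 and 8.38 in WT SD, 10.38, 10.43 and 10.46 in WT LL, 7.9, 8.02 and 7.95 in *pifq* SD, and 9.84, 10.02 and 10.18 in *pifq* LL. Its responses of -2.05 and -2.06 left an interaction of 0.01 (95% interval -0.35 to 0.36), although *pifq* was below WT in both regimes. In WT and *pifq* the responses were -1.87 and -1.97 for *LAC5*, -1.8 and -1.75 for *CYP86A1* and -1.75 and -1.55 for *ATSPS4F* (AT4G10120), a sucrose phosphate synthase. AT1G68570, of the major facilitator superfamily, had -1.61 and -1.52. *HR4* (AT3G50480), a homolog of the resistance gene RPW8, rose by 1.52 in WT and 1.38 in *pifq*.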

How the data were processed

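Transcript levels of 12 whole-seedling samples were measured on 1 AraGene 1.0 ST array each. The table deposited by the authors holds log2 signals. Per the submitters' processing notes they come from RMA, which corrects the background, normalizes arrays by quantiles and summarizes probes. The sources used here do not give its version, and no further scaling was applied. Quantile normalization gives all arrays nearly the same distribution, so a shift shared by all transcripts would not show. The study's own calls, made with another variance analysis in Rosetta Resolver, and their fold changes and p-values were not used.

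From the 38408 probe sets of the table, 98 controls were dropped, and for genes with several probe sets the brightest was kept, which dropped 188 more. Of the 38122 tested, 16487 take 1 locus from the platform annotation and 1028 only from the locus names of the study's list of called genes, of which 1999 lines were held. Of all probe sets, 759 have several genes, 8 have names that disagree and 19888 have none. Symbols and gene order come from the TAIR10.1 annotation. Of the tested probe sets 7102 share all 12 values with another, which leaves 32611 distinct ones.

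A mean per group was fitted with limma 3.58.1 in R 4.3.3 (lmFit, contrasts.fit, eBayes) over all 12 arrays without covariates, and p was adjusted after Benjamini-Hochberg over all 38122. A call needs an adjusted p under 0.05 and 1.5 fold. Errors are the SE of the fitted difference, and intervals are 95% intervals. The procedure was tested on simulated data. Settings compared were other variance models, normalizations, fold requirements, filters and probe choices, a replicate block and fits without each array. Tables and figures were made with numpy 2.4.6, pandas 2.3.3 and matplotlib 3.10.9 in Python 3.11.15.

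The comparison, the gene lists and the rule for naming genes were chosen with earlier results of these data known. The rule names the PIF quartet, the 12 largest called interactions of each sign, all sign reversals, up to 3 called members of each list or else the member with the smallest adjusted p, the 4 largest interactions with a change in *pifq* alone and with changes in both, and the 6 largest responses with a narrow interval. The other called genes, further list members, and the lists of cuticle, arabinogalactan and SAUR genes were added after their values had been seen. Promoter and protein sequences were not analysed here.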

Additional observations from a re-analysis of the deposited data

Results flagged for a closer look

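All 58 genes are listed here because the test of the difference between the genotypes itself passed, at an adjusted p under 0.05 in limma and at least 1.5 fold. Expressed as a linear ratio, the SD to LL ratio in WT exceeded that in *pifq* by the following folds for transcriptional regulators, 10.7 for *PIL1*, 7.1 for *HB-2*, 4.83 for AT3G21330, 4.0 for *HB4*, 3.08 for *KDR*, 3.07 for AT1G05835, 2.29 for *HB-3* and 2.05 for *BEH4*. Auxin genes had ratios of 6.38 for *SAUR21*, 6.05 for *IAA29*, 5.48 for *SAUR19*, 5.28 for *IAA19* and 2.98 for *SAUR28*. Genes of other hormones, peptides, size control and light signalling had 13.4 for *ST2A*, 4.18 for *CKX5*, 3.53 for *AFP3*, 3.19 for *RTFL21*, 2.68 for *RGF6*, 2.57 for *ARGOS* and 3.16 for *FHL*. The mean log2 signals of *SAUR28* and *RTFL21* were below 5 in every group.

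For the cell wall and its glycoproteins the ratios were 7.9 for *XTH15*, 3.3 for *PRP2*, 2.98 for *EXPA8*, 2.78 for *ENODL8*, 2.4 for *AGP21*, 2.27 for *AGP4*, 2.17 for *FLA9* and 1.98 for *XTH8*. Lipid, cuticle and cold-induced membrane genes had 4.62 for *ADS4*, whose mean signals lay below the array medians in all 4 groups, 4.56 for *COR413IM1*, 2.89 for *KCS1*, 2.61 for *CYP86A4*, 2.44 for *BDG1* and 2.33 for *RCI2A*. Enzymes, kinases, trafficking and growth genes, with the serine-rich *SIS*, had 3.22 for AT5G41900, 2.76 for *WNK3*, 2.72 for *DRT100*, 2.33 for *RABA1f*, 2.33 for *CYS2*, 2.3 for *PRA1.B6*, 2.25 for *CYCD1;1* and 2.18 for *SIS*. Among genes named by locus the values were 6.95 for AT5G44440, 4.39 for AT5G02580, 4.0 for AT2G19660, 3.68 for AT2G14900, 3.18 for AT1G12080, 3.14 for AT3G05150, 3.06 for AT1G11120, 3.01 for AT5G05180, 2.29 for AT3G08030 and 2.24 for AT5G06930.

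In the opposite direction the SD to LL ratio in *pifq* exceeded that in WT, by 3.79 for *FRO6*, 3.28 for AT3G44970, 3.02 for *RPP5*, 2.39 for *FADA*, 2.26 for AT4G12830 and 2.0 for AT1G55960. No cause was tested for any of these. The calls of *ST2A*, *XTH15*, *CKX5*, *AFP3*, *PRP2* and AT3G44970 held without any 1 of the 12 arrays, whereas 25 calls were lost without each of the 12 in turn and 27 without some of them. Those lost without each array include *ADS4*, AT5G44440, *RGF6*, *ARGOS*, *BDG1*, *CYS2*, *XTH8* and *BEH4*.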

How the results depend on the processing

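None of the 58 called interactions changed sign under a setting in which it was tested. Changes of sign were not counted for interactions without a call. The number of interaction calls, 58, moved by more than 1.5 times with a variance trend (206), with a filter to probe sets with a mean log2 signal of at least 5 in a group (185, of 20582 tested), with the replicate block (33), and, in settings chosen after seeing the data, at an adjusted p under 0.1 (131) and with platform-named probe sets only (29). Of the 58 genes, 58, 55, 22, 58 and 22 were called in these settings, where the filter left 3 of the 58 untested and the last setting 36, and every one of the 58 that was tested in those 2 was called. The filter asks for its signal in some group only, and *IAA19*, *IAA29* and *SAUR19* passed it through WT SD alone. For such genes a call with the filter is no separate support. The split into higher and lower responses in WT, 52 and 6, became 132 and 74 with the trend and 122 and 63 with the filter, which also called members of lists that had none. The cause was not tested. Without single arrays 6 to 26 were called. The 9 reversals became 1 at 2 fold, 5 in an unmoderated linear model, 23 with the filter, 3 with the replicate block, 18 at an adjusted p under 0.1, 3 with platform-named probe sets only and 1 to 7 without single arrays. The WT and *pifq* responses had 940 and 480 calls at 2 fold and 1244 and 741 with platform-named probe sets only, and without single arrays 1918 to 2641 and 834 to 1367.

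Arrays of equal replicate number deviated together with correlations of -0.066 to 0.348 over 18 pairs, and those of unequal number with -0.232 to 0.123 over 36. Between WT SD and *pifq* SD the equal numbers correlated at 0.147, 0.348 and 0.081, and the unequal ones at -0.232 to 0.119. The sample titles number the replicates without saying that equal numbers belong together. The main fit did not take them as pairs, and whether they are pairs was not settled. With the replicate block 33 probe sets were called, 20 higher and 13 lower in WT.

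With 3 arrays per group the median SE of the interaction was 0.29 on the log2 scale, and a gene without a call is not shown to respond alike in both genotypes.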

Other observations

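When only the 20582 probe sets with a mean log2 signal of at least 5 in some group were tested, 130 probe sets outside the 58 were called for the interaction, 73 with the higher and 57 with the lower response in WT. Their log2 values here come from the fit over all probe sets, where none of them was called. The 57 include 6 unnamed probe sets with identical values in all 12 arrays, with an interaction of -2.08, and also *RPP4* (AT4G16860), at -2.12, and AT4G27300, at -1.39. The genes named below were picked from the calls after their values had been seen, and no test was made of what they share. On the lower side *PPT2* (AT3G01550), a phosphoenolpyruvate translocator, had an interaction of -1.41, *BAM3* (AT4G17090), a beta-amylase, -0.92, *KEA3* (AT4G04850), a thylakoid potassium antiporter, -0.91, and *HCF173* (AT1G16720), needed to translate a photosystem II protein, -0.86. The plastid sigma factor gene *SIGE* (AT5G24120) had -0.84, the carotenoid genes *CYP97A3* (AT1G31800) and *PSY* (AT5G17230) -0.82 and -0.67, and *GLK2* (AT5G44190), a regulator of greening, -0.70. Of 63 lower calls with the filter, 44 had negative point estimates in both genotypes.

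On the higher side *BEE1* (AT1G18400) had an interaction of 2.37, *AGP7* (AT5G65390) of 2.09 and *PRE1* (AT5G39860), a small helix-loop-helix protein related to *KDR*, of 1.62, with responses of 0.64 in WT and -0.98 in *pifq*. *BEE1* passed the filter through WT SD alone, with a mean log2 signal of 6.71 there and 4.05 to 4.91 in the other groups. Brassinosteroid signalling kinases *BSK5* (AT5G59010) and *BSK8* (AT5G41260) had 1.24 and 0.96, and *EXLA2* (AT4G38400), an expansin-like gene, 1.22. *GPAT3* (AT4G01950), an acyltransferase, resembled *KCS1*, with -0.07 in WT and -1.24 in *pifq*.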
